A study of Homo sapiens with 8 samples.

Results

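The short arm of chromosome 18, 18p, is the part of the genome described here, through 41 listed genes of that arm. Of these, 33 had a mean of at least 10 counts per library and form the members, out of 23228 genes counted and 13498 tested in the whole series. The arm was chosen because its genes differed between knockout and control cells, so the members' values in that comparison are a description and carry no test. The cells are ES2, a human ovarian cancer line, with knockout of KDM1A (a histone demethylase that acts on lysine 4 of histone H3) or without it. The groups were KDM1A knockout cells under vehicle, control cells under vehicle, KDM1A knockout cells under 5 µM LY500307 and control cells under 5 µM LY500307. Treatment lasted 48 h and each of the 4 groups had 2 libraries. LY500307 is a synthetic agonist of oestrogen receptor beta. The labels do not say whether the knockout cells are 1 clone or a pool. The effect of losing KDM1A and any other way in which the 2 populations differ cannot be told apart.

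A chromosome arm is a set of neighbours and not a pathway. Its genes share a stretch of DNA, so gain or loss of that stretch in a tumour line is known to shift many of its transcripts together, while each promoter keeps its own regulation. The 18p members serve unrelated tasks, among them mRNA export (THOC1), nuclear pores (SEH1L), centrosomes (CEP192), contractile myosin (MYL12A) and basement membrane (LAMA1). No DNA measurement was analysed here, and the part of gene copy number in the values below was not tested.

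Promoters are shown for 5 members whose values differ most in kind: EPB41L3, higher in knockout cells, COLEC12, the lowest, THOC1, close to the median of the members, and the neighbours MYL12A and MYL12B. Each runs from 250 bases before to 50 bases after the gene's start as given by RefSeq on GRCh38.p14, read 5′ to 3′ on the gene's strand. The positions are chr18:5628942-5629241 (minus strand) for EPB41L3, chr18:500652-500951 (minus) for COLEC12, chr18:267998-268297 (minus) for THOC1, chr18:3247232-3247531 (plus) for MYL12A and chr18:3261883-3262182 (plus) for MYL12B. Capitals mark the GC box GGGCGG or its reverse complement CCGCCC.
EPB41L3: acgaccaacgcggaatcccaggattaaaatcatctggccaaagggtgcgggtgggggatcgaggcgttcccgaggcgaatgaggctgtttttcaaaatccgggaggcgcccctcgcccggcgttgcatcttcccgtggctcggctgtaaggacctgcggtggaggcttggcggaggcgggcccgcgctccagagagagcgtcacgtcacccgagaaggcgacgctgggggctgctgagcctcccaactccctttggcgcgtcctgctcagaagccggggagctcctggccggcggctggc
COLEC12: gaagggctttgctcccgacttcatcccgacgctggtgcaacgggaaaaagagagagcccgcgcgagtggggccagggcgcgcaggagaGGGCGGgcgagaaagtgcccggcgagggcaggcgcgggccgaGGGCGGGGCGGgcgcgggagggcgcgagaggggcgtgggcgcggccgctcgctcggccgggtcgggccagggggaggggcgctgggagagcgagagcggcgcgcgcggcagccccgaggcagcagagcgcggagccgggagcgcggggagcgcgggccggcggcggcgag
THOC1: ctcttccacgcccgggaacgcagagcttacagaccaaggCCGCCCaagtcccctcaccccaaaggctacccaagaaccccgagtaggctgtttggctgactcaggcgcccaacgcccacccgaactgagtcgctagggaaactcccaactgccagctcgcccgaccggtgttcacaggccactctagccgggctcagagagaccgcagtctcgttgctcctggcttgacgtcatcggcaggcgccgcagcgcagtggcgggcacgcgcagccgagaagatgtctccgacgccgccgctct
MYL12A: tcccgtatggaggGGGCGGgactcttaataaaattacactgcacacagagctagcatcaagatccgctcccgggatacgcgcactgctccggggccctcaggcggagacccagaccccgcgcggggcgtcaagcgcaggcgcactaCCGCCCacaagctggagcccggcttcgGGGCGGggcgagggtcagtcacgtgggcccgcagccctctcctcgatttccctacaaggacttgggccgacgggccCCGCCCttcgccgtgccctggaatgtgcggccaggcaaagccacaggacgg
MYL12B: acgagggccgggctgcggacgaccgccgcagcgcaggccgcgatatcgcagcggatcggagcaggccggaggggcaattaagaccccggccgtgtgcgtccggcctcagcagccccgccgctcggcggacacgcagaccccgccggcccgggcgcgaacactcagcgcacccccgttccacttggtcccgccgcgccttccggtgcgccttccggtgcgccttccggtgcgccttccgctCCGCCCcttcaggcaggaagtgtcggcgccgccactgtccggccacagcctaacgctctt
The GC box was found 0 times in the EPB41L3 window, 3 times in COLEC12, 1 time in THOC1, 4 times in MYL12A and 1 time in MYL12B. RefSeq windows matched 29 of the 33 members; LAMA1, RAB12, IMPA2 and RNMT were not matched. Of the 29, 23 held the GC box on either strand (79.3%), against 44.6% of all 27305 windows of that length. The letters CCAAT or ATTGG stood in 6 of the 29 (20.7%, against 35.7% of all), and TATAAA or TTTATA in 0 of the 29 (against 12.0% of all). The median number of CG pairs per window was 33 in members and 14 in all windows, which also include genes that are silent in these cells. Windows with the GC box included that of the lowest member, COLEC12, and those of MYL12B, TGIF1 and PTPRM, whose log2 fold changes were -0.32, -0.15 and -0.14. The 6 matched windows without it were those of LPIN2, PTPN2, SPIRE1, METTL4, CHMP1B and EPB41L3. For each gene 1 window was used, and other starts of the same gene were not examined. The windows of PTPN2 (chr18:12840913-12841212, minus strand) and SPIRE1 (chr18:12636303-12636602, minus) lie well inside these genes, whose annotated ends on hg19 are 12929642 and 12658106. Their outermost promoters were therefore not searched for the GC box.

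Summed over genes, a library held 24348937 to 30131097 counts. KDM1A had 75.6 and 77.8 CPM in knockout cells given vehicle, against 220 and 219 CPM in control cells given vehicle. Under LY500307 KDM1A had 72.0 and 71.6 CPM in knockout cells, against 238 and 241 CPM in control cells. CPM are counts scaled to the TMM-adjusted library size. The ovarian markers PAX8 and WT1 had 846 and 739 counts over the 8 libraries and the epithelial keratin KRT18 had 52572, while MUC16 had 1. Some markers differed between the populations, with COL1A1 at a mean of 221 CPM in knockout cells and 1222 CPM in control cells under vehicle. CDH5 averaged 30.6 CPM in knockout cells and 102 CPM in control cells, and KRT18 161 CPM in knockout cells and 327 CPM in control cells. Other markers were higher in knockout cells under vehicle, where PAX8 averaged 5.90 CPM, against 1.98 CPM in control cells, WT1 5.22 CPM, against 1.75 CPM, and VIM, a mesenchymal filament protein, 12219 CPM, against 8588 CPM. The part of these differences in the 18p values was not tested. Of the markers of blood cells reported here, CD3E had 0 counts and PTPRC 7, although CD68 had 18006. Of the endothelial markers PECAM1 had 19 counts and VWF 11, against 12634 for CDH5, and of the fibroblast markers DCN had 4 and COL1A1 139380. The duplicates are described as sequencing runs, so the spread behind every p-value is that between libraries and may be technical.

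Across the members, knockout cells held about 0.53 of the control level. The median ratio over the 33 members to the mean of vehicle-treated control cells was 0.534 and 0.519 in the vehicle-treated knockout libraries, against 1.01 and 0.987 in the vehicle-treated control libraries. It was 0.528 and 0.524 in knockout libraries under LY500307, against 1.03 and 0.996 in control libraries under LY500307. All 4 knockout libraries therefore lay apart from all 4 control libraries. The same ratio over all tested genes was between 0.988 and 1.00 in the 8 libraries. The members together took 0.241% to 0.257% of gene counts in knockout libraries and 0.451% to 0.476% in control libraries.

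**Figure D1:**
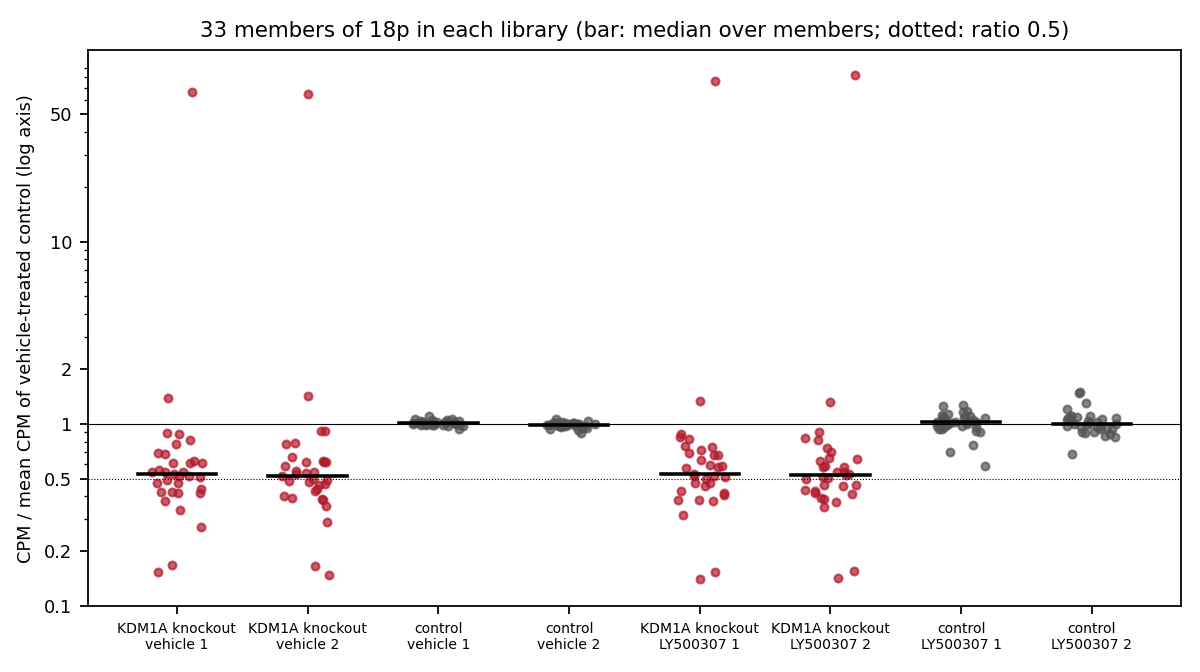
Each point is 1 of the 33 members of 18p in 1 library, as CPM over the mean CPM of vehicle-treated control cells on a log axis, and each bar is the median over members. The bars of the 4 knockout libraries sit between 0.519 and 0.534, those of the 4 control libraries between 0.987 and 1.03, and the point far above the rest in knockout libraries is LAMA1.

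Under vehicle, 29 of the 33 members were past the threshold and lower in knockout cells and 2 were past it and higher, where 33.3% of all tested genes were lower and 30.7% higher. Under LY500307, 31 were lower and 2 higher, where 33.6% of all tested genes were lower and 32.6% higher. The threshold is an adjusted p under 0.05 in edgeR, and nothing is read from these counts because the arm was chosen on this difference. The median log2 fold change of the members was -0.92 under vehicle (quartiles -1.21 and -0.69) and -0.92 under LY500307 (quartiles -1.14 and -0.68), against -0.01 over all tested genes under either treatment. All 4 knockout libraries lay below all 4 control libraries for 31 members and above them for the other 2, LAMA1 and EPB41L3, so no member overlapped. Of all tested genes, 29.4% lay below in this way and 27.2% above. In bulk RNA, a lower level in every cell and the loss of a transcript from part of the cells cannot be told apart.

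Single members spread around that centre. Under vehicle, 16 of the 33 had a ratio of knockout to control from 0.4 to 0.6, 6 from 0.6 to 0.75, 4 from 0.75 to 1, 3 from 0.25 to 0.4 and 2 below 0.25. LAMA1 and EPB41L3 were above 1. In log2 units 23 members lay within 0.5 of the median, 4 lay further below it and 6 further above. The 5 nearest to the median were SPIRE1, THOC1, MYL12A, CEP76 and PSMG2, with log2 fold changes of -0.92, -0.91, -0.94, -0.90 and -0.89. Their SE were 0.061, 0.062, 0.048, 0.103 and 0.065. These genes were picked for nearness, so their small distances to the median follow from that choice. The median SE over the 33 members was 0.064, against a distance between the quartiles of 0.53. Over all tested genes the quartiles were -0.37 and 0.33. The share of all tested genes within 0.5 of their own median is not given here, so no clustering particular to 18p is read from these counts.

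Of the 6 members that handle RNA or act in the nucleus, 5 were past the threshold and lower under vehicle, and TGIF1 was not past it. Over all members 29 of 33 were lower in this way, and 33.3% of all tested genes. The arm was chosen on this difference, so nothing is read from counts by group. SEH1L, a nuclear pore subunit (hg19 chromosome 18, 12947132 to 12987535), stood at 90.6 and 89.0 CPM in knockout cells under vehicle, against 193 and 190 CPM in control cells, a log2 fold change of -1.10 (SE 0.053). THOC1, a subunit of the complex that couples transcription to mRNA export (214520 to 268050), stood at 58.7 and 62.6 CPM in knockout cells, against 115 and 114 CPM in control cells. RNMT, the methyltransferase of the mRNA cap, stood at 77.2 and 78.7 CPM in knockout cells, against 140 and 143 CPM in control cells. For each of these the libraries of the groups were far apart relative to the spread of the duplicates. SMCHD1, a chromatin protein that helps keep the inactive X chromosome silent, had a log2 fold change of -0.72 (SE 0.051), and the methyltransferase METTL4 -0.70 (SE 0.082). TGIF1, a homeodomain repressor in TGF-beta signalling, differed least in this group, with 32.7 and 34.0 CPM in knockout cells and 36.5 and 37.6 CPM in control cells (log2 fold change -0.15, SE 0.074).

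The genes for protein turnover kept to the centre or below it. USP14, a deubiquitinase bound to the proteasome (158383 to 214629), stood at 209 and 195 CPM in knockout cells, against 516 and 488 CPM in control cells, a log2 fold change of -1.32 (SE 0.048). AFG3L2, a subunit of a protease of the inner mitochondrial membrane, had 95.6 and 90.8 CPM in knockout cells, against 188 and 180 CPM in control cells. PSMG2, which helps assemble the proteasome, had 47.0 and 45.6 CPM in knockout cells, against 87.2 and 84.6 CPM in control cells. USP14 lies at the outer end of the arm, while PSMG2 and AFG3L2 lie near each other in its inner part.

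Centrosome and membrane traffic genes were past the threshold and lower in 7 of 7, with log2 fold changes of -1.38 to -0.36. Over all members 29 of 33 were lower in this way, and 33.3% of all tested genes. The vesicle GTPase RAB31 (9708272 to 9862548) was the lowest, with 47.8 and 49.4 CPM in knockout cells under vehicle, against 135 and 117 CPM in control cells (log2 fold change -1.38, SE 0.064). CHMP1B, an ESCRT-III subunit, was the highest, with 40.4 and 40.4 CPM in knockout cells, against 54.3 and 49.3 CPM in control cells (log2 fold change -0.36, SE 0.069). CEP192, a scaffold that recruits kinases to the centrosome, stood at 45.5 and 44.8 CPM in knockout cells, against 98.4 and 93.9 CPM in control cells. CEP76, which limits centriole duplication, had a log2 fold change of -0.90, RAB12 of -0.97, NAPG, which recycles SNARE proteins, of -0.58 and VAPA, a tether of the endoplasmic reticulum, of -0.69. VAPA stood at 194 and 199 CPM in knockout cells, against 318 and 315 CPM in control cells.

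Of the cytoskeletal members, the 2 regulatory light chains of non-muscle myosin lie side by side and differed unequally. MYL12A (3247479 to 3256234) stood at 218 and 202 CPM in knockout cells under vehicle, against 401 and 405 CPM in control cells, a log2 fold change of -0.94 (SE 0.048). MYL12B (3261477 to 3278459) stood at 287 and 276 CPM in knockout cells, against 358 and 345 CPM in control cells, a log2 fold change of -0.32 (SE 0.046). Knockout libraries were below control libraries for both, by a ratio of 0.521 for MYL12A and 0.801 for MYL12B. Of the distinct windows of 50 bases, the read length, in GENCODE coding transcripts of MYL12A, 4.57% also occur in those of MYL12B, and 4.39% the other way round. Reads from such windows cannot be split between the pair, and matches elsewhere in the genome were not examined. SPIRE1, an actin nucleator, had a log2 fold change of -0.92, at the median of the members.

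EPB41L3, a membrane skeleton protein of the band 4.1 family (5392380 to 5630699), went against the arm. It stood at 132 and 135 CPM in knockout cells under vehicle, against 96.2 and 93.8 CPM in control cells, a log2 fold change of 0.49 (SE 0.052). With LY500307 the values were 127 and 126 CPM in knockout cells, against 89.6 and 91.0 CPM in control cells. All 4 knockout libraries were above all 4 control libraries.

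The matrix and surface genes held both extremes of the arm. LAMA1, an alpha chain of basement membrane laminin (6941741 to 7117796), stood at 99.0 and 96.6 CPM in knockout cells under vehicle, against 1.41 and 1.58 CPM in control cells, a log2 fold change of 6.03 (SE 0.135). Its control values rest on 70 counts over both libraries. Under LY500307 LAMA1 stood at 113 and 122 CPM in knockout cells, against 0.874 and 2.21 CPM in control cells. It was low in every control library and high in every knockout library. COLEC12, a scavenger receptor with a collectin domain (316737 to 500722), had the lowest fold change of the members. It stood at 91.1 and 87.9 CPM in knockout cells under vehicle, against 601 and 579 CPM in control cells, a log2 fold change of -2.72 (SE 0.046). EMILIN2, a glycoprotein of elastic fibres (2847004 to 2916001), stood at 3.40 and 3.38 CPM in knockout cells, against 20.2 and 20.3 CPM in control cells (log2 fold change -2.58, SE 0.128). The ratio of knockout to control was 0.152 for COLEC12 and 0.167 for EMILIN2, well under the centre of the arm.

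Of the 7 signalling genes, 6 were past the threshold and lower under vehicle, and PTPRM was not past it. Over all members 29 of 33 were lower in this way, and 33.3% of all tested genes. The SRC family kinase YES1 (721588 to 812547) stood at 124 and 122 CPM in knockout cells, against 261 and 246 CPM in control cells. PTPN2, a phosphatase that restrains JAK and STAT signalling, stood at 23.5 and 22.7 CPM in knockout cells, against 52.3 and 53.9 CPM in control cells. PPP4R1, a regulatory subunit of phosphatase 4, had a log2 fold change of -1.31, the BMP modulator TWSG1 of -1.21 and MPPE1, a phosphoesterase, of -0.70. Of these 5 genes only MPPE1 lay above the median of the members. IMPA2, an inositol monophosphatase, was lower still, with 1.09 and 1.17 CPM in knockout cells, against 3.92 and 4.14 CPM in control cells (log2 fold change -1.82, SE 0.230). The receptor phosphatase PTPRM (7566780 to 8406859) differed least of these 7, with 8.22 and 8.43 CPM in knockout cells and 9.59 and 8.75 CPM in control cells (log2 fold change -0.14, SE 0.127).

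Of the other members, LPIN2, a phosphatidate phosphatase of lipid synthesis, stood at 53.0 and 55.6 CPM in knockout cells under vehicle, against 154 and 159 CPM in control cells (log2 fold change -1.53, SE 0.055). ENOSF1 had a log2 fold change of -1.28 (SE 0.068). It shares 967 exonic bases, 8.49% of its exons, with TYMS on the opposite strand, and whether reads were counted by strand is not known here. The same holds for MPPE1, which shares 33.4% of its exons with GNAL, and for AFG3L2, which shares 11.7% with TUBB6. ANKRD12, an ankyrin repeat protein that binds nuclear receptor coactivators, had a log2 fold change of -0.61 (SE 0.068).

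The 8 listed genes under the limit of 10 counts had means from 0 to 8 counts per library. MYOM1, a protein of the muscle M-band, was just outside with a mean of 8 counts, and IMPA2 was the lowest one inside with 77.6. CIDEA, a lipid droplet protein, had 0 counts in knockout cells under either treatment, against 12 counts in vehicle-treated control cells and 14 in control cells under LY500307. ADCYAP1, a neuropeptide precursor, ran the other way, with 25 counts in vehicle-treated knockout cells, against 1 in control cells, and 26 in knockout cells under LY500307, against 7 in control cells. Neither gene has enough counts for a firm ratio. ADCYAP1 was nevertheless tested and was past the threshold and higher in knockout cells under both treatments. Its log2 fold change was 4.15 (SE 1.01) under vehicle and 1.89 (SE 0.66) under LY500307. L3MBTL4, DLGAP1, GNAL and ARHGAP28 had 0 to 12 counts in any group and APCDD1 had none.

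Single members departed from the median in much the same way under both treatments. The departure of a member from the median was on the same side under vehicle and under LY500307 for 29 of 33. Of the rest, SPIRE1 was itself the median under vehicle and MYL12A under LY500307. AFG3L2 (-0.06 under vehicle and 0.02 under LY500307) and PSMG2 (0.03 and -0.05) lay close to it. How many of all tested genes kept to the same side of their own median is not given here. The arm was also chosen on the knockout difference, so nothing particular to it is read from the count of 29. The change of the knockout difference with treatment, the interaction, was under 0.25 in absolute log2 units for 32 of 33 members, and its median was -0.01. Small values were common among all tested genes too, where the quartiles of the interaction were -0.126 and 0.122. In edgeR no member passed the threshold for it (0 of 33, smallest adjusted p = 0.109, where 1.62% of all tested genes passed). An unadjusted edgeR p under 0.05 was found for 4 of 33, and DESeq2 also called 0. The shares of all tested genes with such an unadjusted p, or called by DESeq2, are not given here. The exception in size was PTPRM at -0.54 (edgeR adjusted p = 0.109), with a ratio of knockout to control of 0.909 under vehicle and 0.624 under LY500307. Without knockout LY500307 replicate 2, THOC1 passed, with an interaction of 0.33 and an edgeR adjusted p = 0.0439.

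The genes of 18p outside the list were lower as well, and the choice of the arm covers them too. Their values in this comparison are therefore also a description and carry no test. Another 15 tested genes of 18p had a median log2 fold change of -1.15 under vehicle, and 14 were past the threshold and lower, none higher, where 33.3% of all tested genes were lower and 30.7% higher. TYMS, the thymidylate synthase of DNA synthesis, stood at 184 and 183 CPM in knockout cells under vehicle, against 626 and 610 CPM in control cells (log2 fold change -1.75, SE 0.043). The beta-tubulin TUBB6 stood at 428 and 452 CPM in knockout cells, against 809 and 838 CPM in control cells, near the centre of the members at -0.90. NDC80, a kinetochore subunit, was closer to control, at -0.36. The 50 tested genes of the arm, with MYOM1 and ADCYAP1 included, had a median of -0.93 and quartiles of -1.28 and -0.69. Of these 50, 43 were past the threshold and lower and 3 higher, LAMA1, EPB41L3 and ADCYAP1.

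Along the arm, the shift reached from the first member to the last. Members that start below 5 Mb had a median log2 fold change of -0.99 (12 genes, quartiles -1.37 and -0.71), those from 5 to 10 Mb -0.69 (9 genes, quartiles -1.21 and -0.14) and those above 10 Mb -0.91 (12 genes, quartiles -1.09 and -0.82). The quartiles were closest together in the innermost stretch. The members at or above -0.32 lay next to each other, from MYL12B through TGIF1, EPB41L3 and LAMA1 to PTPRM, a run that was picked after its values were seen. Other 18p genes inside that run were lower, ZFP161 at -0.69 and C18orf18 at -0.50.

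Most of the first tested genes beyond the centromere did not show the shift. RNMT at 13726659 and ZNF519 at 14057456, near the inner end of 18p, had log2 fold changes of -0.86 and -1.13 under vehicle. The first tested genes of 18q, ROCK1 at 18524573, GREB1L at 18822193 and ESCO1 at 19109245, had 0.05, 0.20 and 0.16. Over 18q, genes that start below 25 Mb had a median of 0.04 (22 genes, quartiles -0.67 and 0.24). Those beyond it had a median of 0.20 (118 genes, quartiles -0.24 and 0.46). Of the 140 tested 18q genes, 35 were past the threshold and lower and 60 higher, where 33.3% of all tested genes were lower and 30.7% higher. Single genes there still differed strongly, such as GATA6 at -2.07. GATA6 is a transcription factor of endoderm and heart.

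**Figure D2:**
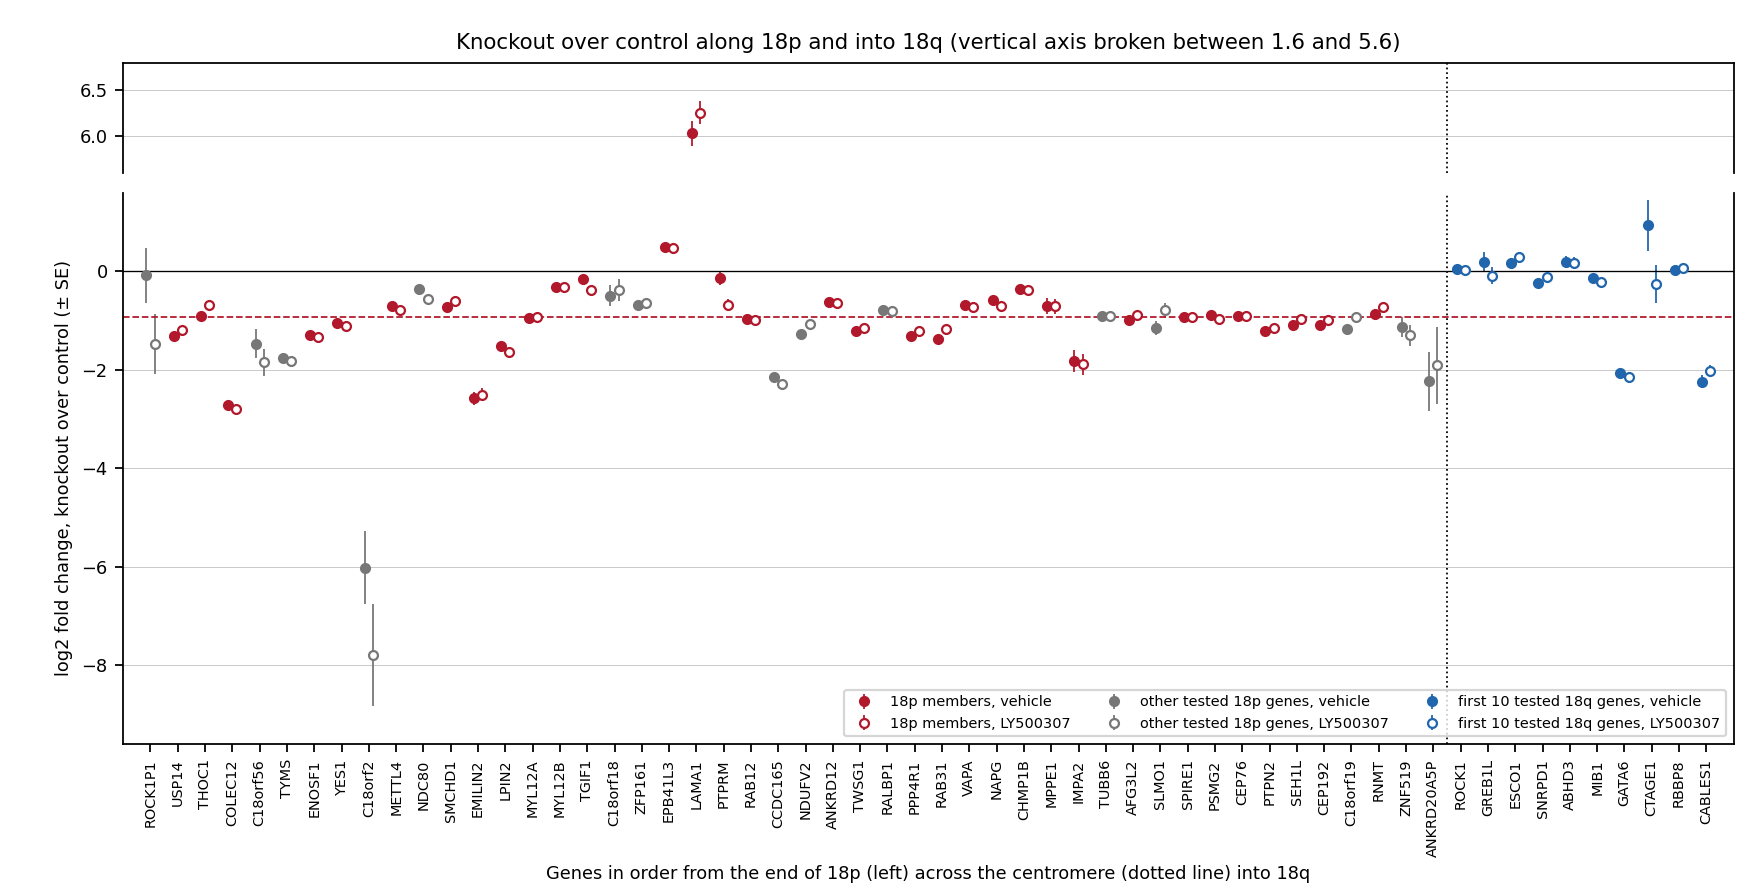
Log2 fold change of knockout over control with its SE for the 33 members (red), the 15 other tested genes of 18p (grey) and the first 10 tested genes of 18q (blue), in order along the chromosome, with filled points for vehicle and open points for LY500307; the dashed line is the median of the members, -0.92. Nearly all points of 18p lie around the dashed line and most of 18q lie near 0; the axis is broken below LAMA1, which lies above 6. The lowest point is C18orf2, with 1 and 0 counts in knockout cells, whose fitted value depends on the prior count and is no bound.

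Among the 41 arms with at least 20 tested genes, 18p had the lowest median log2 fold change under vehicle. The arms nearest to it were 5p at -0.78 (103 genes) and 16p at -0.66 (288 genes), and 18q stood at 0.17. Past the threshold and lower were 43 of 50 tested genes on 18p, 82 of 103 on 5p, 239 of 288 on 16p and 35 of 140 on 18q, where 33.3% of all tested genes were. The quartiles were 0.59 apart on 18p, 0.76 on 5p, 0.46 on 16p and 0.63 on 18q. From the narrowest spread, 18p ranked 29 of 41. The difference between arms was not tested, since the arm was chosen for it.

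**Figure D3:**
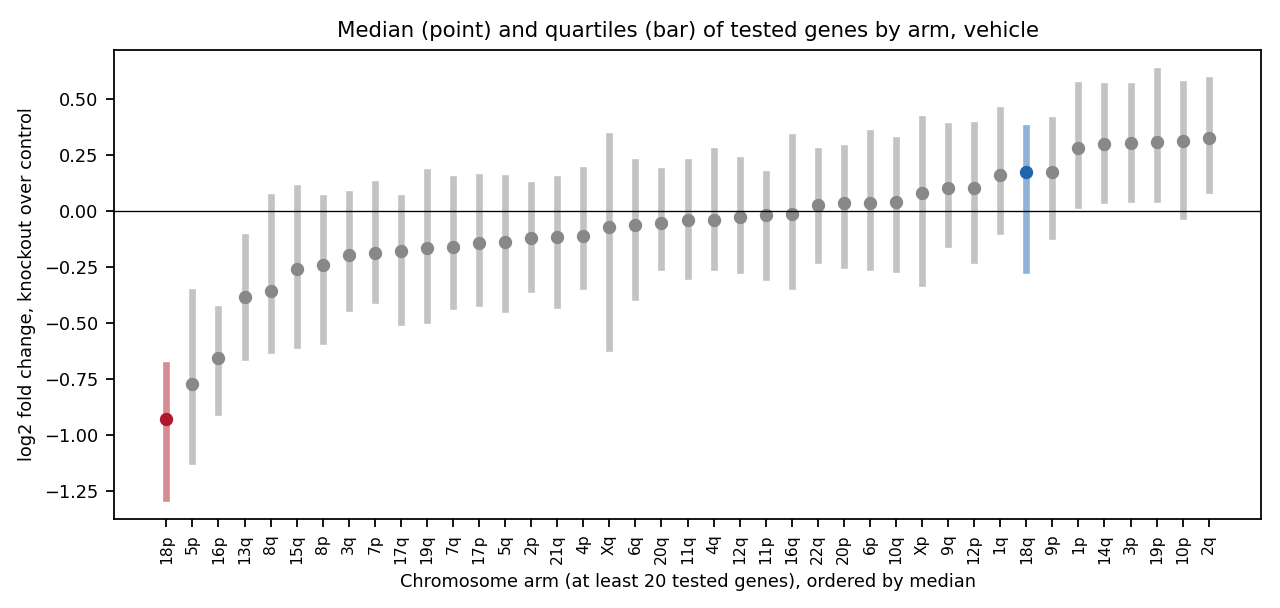
Median (point) and quartiles (bar) of the log2 fold change of knockout over control under vehicle for the tested genes of each of the 41 arms, ordered by median. 18p (red) stands first at -0.93, and its own long arm 18q (blue) stands at 0.17.

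Partners and paralogs of the members that are encoded on other arms were compared under vehicle. Of 59 listed, 54 were tested, of which 28 were past the threshold and lower in knockout cells and 10 higher, where 33.3% of all tested genes were lower and 30.7% higher. Their median log2 fold change was -0.15, against -0.92 for the members and -0.01 for all tested genes. The 9 partners of SEH1L in the Y-shaped complex of the nuclear pore ranged from -0.19 to 0.31, with 2 lower and 2 higher, while SEH1L stood at -1.10. The 6 partners of THOC1 ranged from -0.87 to -0.04, and the lowest of them, THOC6, lies on 16p. The differences between these partners and their 18p members were not tested.

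Single partners did differ. LPIN1, the paralog of LPIN2, rose to 159 and 153 CPM in knockout cells, against 80.7 and 79.9 CPM in control cells (log2 fold change 0.96, edgeR adjusted p = 3.78e-17, higher in 2 of 2 libraries). The non-muscle myosin heavy chain MYH10 fell to 88.9 and 81.1 CPM in knockout cells, against 137 and 150 CPM in control cells (log2 fold change -0.76, edgeR adjusted p = 1.46e-13, lower in 2 of 2). The formin FMN1, a partner of SPIRE proteins in actin assembly, fell by 0.93 on the log2 scale. The mitotic kinase AURKA fell by 0.42. The SRC family kinase LYN had 3.56 and 3.61 CPM in knockout cells, against 9.16 and 9.56 CPM in control cells, a log2 fold change of -1.38. PPP4C, the catalytic partner of PPP4R1, fell by 0.68 and CCP110, a partner of CEP76 at the centriole, by 0.65. The edgeR adjusted p was 5.63e-17 for FMN1, 1.27e-09 for AURKA, 1.27e-09 for LYN, 4.68e-11 for PPP4C and 9.88e-09 for CCP110, each lower in 2 of 2 libraries. PPP4C, CCP110 and THOC6 lie on 16p, an arm with a median of -0.66 itself.

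The response to LY500307 does not enter the choice of the arm and was tested in each cell population. In both, the median of the members lay close to that of all tested genes. In knockout cells the median log2 fold change was 0.02 (range -0.51 to 0.29), against 0.01 over all tested genes, and in control cells 0.02 (range -0.53 to 0.47), against 0.01. In knockout cells 5 of 33 members rose and 2 fell, where 9.16% of all tested genes rose and 11.3% fell. In control cells 4 rose and 4 fell, where 12.3% of all tested genes rose and 14.0% fell. Each comparison shares its vehicle libraries with a comparison of knockout against control.

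MYL12A fell with the agonist in both populations. In knockout cells it stood at 154 and 141 CPM under LY500307, against 218 and 202 CPM under vehicle (log2 fold change -0.51, SE 0.049, edgeR adjusted p = 1.99e-09, lower in 2 of 2 libraries). In control cells it stood at 283 and 275 CPM under LY500307, against 401 and 405 CPM under vehicle (log2 fold change -0.53, SE 0.048, edgeR adjusted p = 4.36e-10, lower in 2 of 2). The groups did not overlap in either population, and the interaction was 0.02. Its neighbour MYL12B fell as well, by 0.14 in knockout cells (edgeR adjusted p = 0.0283) and by 0.15 in control cells (edgeR adjusted p = 0.0156). With library totals in place of TMM the fall of MYL12B was not past the threshold, at -0.08 in knockout cells and -0.07 in control cells, and without knockout LY500307 replicate 2 it was -0.09 in knockout cells. MYL12A and MYL12B were the only 2 members past the threshold in both populations. Outside the listed genes, TUBB6 and TYMS on 18p also fell in both. TUBB6 fell by 0.46 in knockout cells and 0.45 in control cells (edgeR adjusted p = 5.25e-10 and 5.83e-10), and TYMS by 0.44 in knockout cells and 0.37 in control cells (edgeR adjusted p = 3.65e-09 and 4.66e-08). Past the threshold in knockout cells, 2 of these 15 other tested genes fell and 1 rose, where 11.3% of all tested genes fell and 9.16% rose. In control cells 3 of the 15 fell and 1 rose, where 14.0% of all tested genes fell and 12.3% rose.

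In knockout cells the cap methyltransferase RNMT rose to 89.7 and 92.1 CPM under LY500307, against 77.2 and 78.7 CPM under vehicle (log2 fold change 0.22, SE 0.053, edgeR adjusted p = 0.00258, higher in 2 of 2 libraries). THOC1 rose by 0.25 (edgeR adjusted p = 0.00424), LAMA1 by 0.27 (adjusted p = 0.00823), RAB31 by 0.24 (adjusted p = 0.00808) and PTPN2 by 0.21 (adjusted p = 0.0426), each with both LY500307 libraries above both vehicle libraries. THOC1 stood at 76.9 and 67.2 CPM under LY500307, against 58.7 and 62.6 CPM under vehicle, a wider spread than that of RNMT. Without knockout LY500307 replicate 1 its log2 fold change was 0.14. Of the 7 calls in knockout cells, those of MYL12A and RNMT held under all 14 alternatives. The adjusted p of RNMT, by edgeR or DESeq2, then ranged from 0.000225 to 0.035, and over the same alternatives that of PTPN2 reached 0.234, of THOC1 0.209, of RAB31 0.161, of LAMA1 0.732 (by DESeq2) and of MYL12B 0.258.

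In control cells LPIN2 rose to 184 and 188 CPM under LY500307, against 154 and 159 CPM under vehicle (log2 fold change 0.25, SE 0.051, edgeR adjusted p = 0.000378, higher in 2 of 2 libraries). PTPRM rose to 11.7 and 13.7 CPM under LY500307, against 9.59 and 8.75 CPM under vehicle (log2 fold change 0.47, SE 0.120, edgeR adjusted p = 0.00368). In knockout cells PTPRM stood at 7.61 and 8.24 CPM under LY500307, against 8.22 and 8.43 CPM under vehicle. ANKRD12 rose by 0.19 (edgeR adjusted p = 0.0308) and VAPA by 0.13 (adjusted p = 0.0442), while SMCHD1 fell by 0.17 (adjusted p = 0.0134) and EMILIN2 by 0.31 (adjusted p = 0.0237). Without control vehicle replicate 2 the log2 fold change of ANKRD12 was 0.10, and without control vehicle replicate 1 that of SMCHD1 was -0.11. With library totals SMCHD1 was at -0.09 and VAPA at 0.20. The calls of LPIN2 and MYL12A held under all 14 alternatives, with an adjusted p of LPIN2, by edgeR or DESeq2, from 1.53e-05 to 0.0124. The adjusted p of PTPRM reached 0.0967, of ANKRD12 0.392, of VAPA 0.220, of SMCHD1 0.237, of EMILIN2 0.215 and of MYL12B 0.218. Library totals in place of TMM turned the split in control cells to 12 higher and 1 lower and in knockout cells to 9 higher and 1 lower. With that scaling the median of all tested genes also moved up, to 0.0779 in control cells and 0.0696 in knockout cells.

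The calls lost when 1 library was left out were as follows, with the edgeR adjusted p. In control cells PTPRM was lost without vehicle replicate 2 (0.0579) or LY500307 replicate 2 (0.0967), and ANKRD12 without vehicle replicate 2 (0.392) or LY500307 replicate 1 (0.217) or 2 (0.0555). SMCHD1 was lost without vehicle replicate 1 (0.237) or LY500307 replicate 1 (0.0508) or 2 (0.0905), and MYL12B without the same libraries (0.150, 0.0535 and 0.110). EMILIN2 was lost without vehicle replicate 1 (0.0919) or 2 (0.102) or LY500307 replicate 1 (0.215). VAPA was lost without any 1 library of either control group (0.110 to 0.220) or of vehicle-treated knockout cells (0.0513 and 0.0509). In knockout cells THOC1 was lost without vehicle replicate 1 (0.0795) or LY500307 replicate 1 (0.209), RAB31 without the same libraries (0.0738 and 0.161) and LAMA1 without vehicle replicate 2 (0.0832) or LY500307 replicate 2 (0.102). MYL12B was lost without vehicle replicate 1 (0.199) or 2 (0.0553) or LY500307 replicate 2 (0.258), and PTPN2 without any 1 of the 8 libraries (0.0512 to 0.234).

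**Figure D4:**
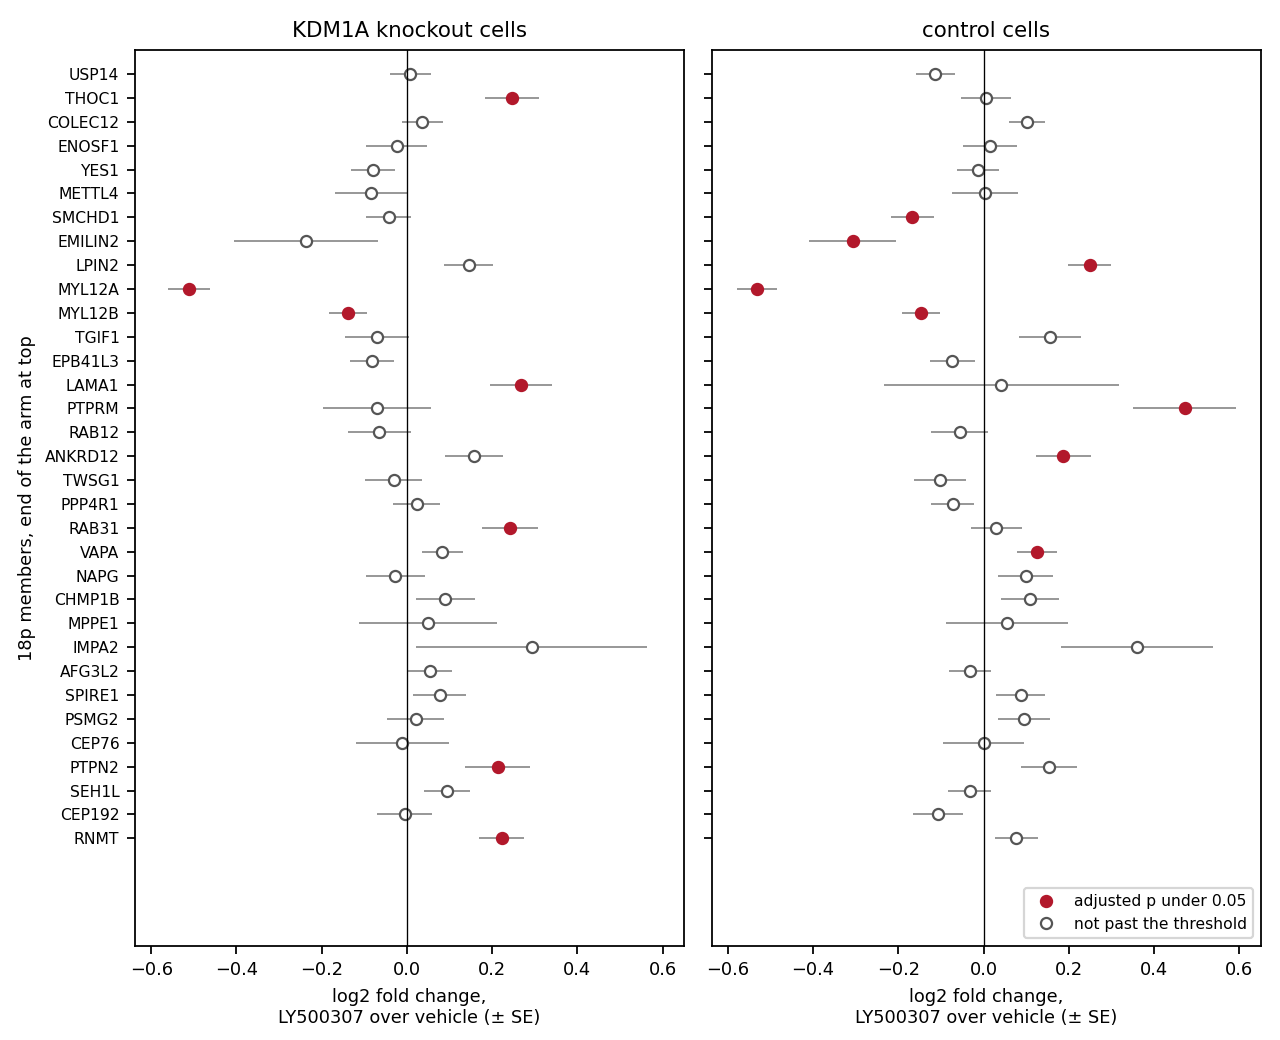
Log2 fold change of LY500307 over vehicle with its SE for each of the 33 members, in knockout cells (left) and control cells (right), with filled points where the edgeR adjusted p is under 0.05. Most members lie within 0.2 of 0 in both populations, and MYL12A lies at -0.51 in knockout cells and -0.53 in control cells.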

How the data were processed

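RNA from 8 libraries of ES2 cells was sequenced in single-end reads of 50 bases. For each library the authors deposited raw counts, a whole number per gene. The submitters' processing notes name bcl2fastq, TopHat2 2.0.8b, HTSeq and hg19. The annotation and strand setting were not given in the sources used here. Summary entries of the counter (10.7% to 12.8% of uniquely aligned reads outside genes, 0.811% to 0.861% ambiguous) were removed.

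Counts were analysed with edgeR 4.0.16 in R 4.3.3. Of 23228 genes, filterByExpr kept 13498, which were scaled by TMM and fitted with 1 quasi-likelihood model of 4 group means over all 8 libraries (glmQLFTest, two-sided, Benjamini-Hochberg adjustment over all genes tested). Library totals give the depth, and counting error limits genes with few counts. The procedure was tested on simulated data. No pair of duplicates was alike enough to be 1 library (chi-square over degrees of freedom 3.12 to 4.44), so all 8 were kept. Positions came from GENCODE release 44 on GRCh37, with 19137 symbols matched directly and 2188 through RefSeq synonyms. DESeq2 1.42.0, other scalings, no filter, fewer libraries and a replicate block were alternatives.

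The members, lists and tests were chosen with earlier results of these data known. Named members are the 6 lowest, the 6 highest and the 5 nearest the median under vehicle, the 4 highest in CPM, the myosin pair, the genes at the limit of 10 counts, members past the threshold with LY500307 (at most 8 a comparison), and the 8 partners with the smallest p. Others were added to account for every member.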

Additional observations from a re-analysis of the deposited data

How the results depend on the processing

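The median log2 fold changes of the 18p members, knockout over control, kept their sign under every alternative run. Library totals in place of TMM gave -0.87 under vehicle, -0.88 for all 50 tested genes of 18p, and -0.94 and -0.86 for members below 5 Mb and above 10 Mb. Without a filter on low counts the 18p genes, then 62, had a median of -1.005. Leaving out 1 library gave -0.94 to -0.91 for the members, -0.996 to -0.92 for all 18p genes, -1.03 to -0.97 below 5 Mb, and -0.94 to -0.90 above 10 Mb.

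The response to LY500307 depended more on the settings. In control cells the count of members that rose was 12 with library totals, 2 by DESeq2 and 1 to 5 without 1 library, and that of members that fell was 1 with library totals and 1 to 4 without 1 library. In knockout cells 9 rose with library totals, 3 by DESeq2 and 2 to 4 without 1 library, and 1 fell with library totals and 1 to 2 without 1 library. With library totals the medians were 0.0884 in control cells and 0.0800 in knockout cells, against 0.0779 and 0.0696 over all tested genes. The share of all tested genes past the threshold is not given here for the alternatives, so these counts have no background beside them. For the interaction the count higher was 0 to 1 and the median -0.0312 to 0.0465 without 1 library. Library totals moved the median of all tested genes by less than 0.1.

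The replicate numbers did not pair the samples, since the deviations of same-numbered libraries correlated at 0.000614 to 0.0700 over genes. With the replicate block, 29 members were lower and 2 higher under vehicle, 31 and 2 under LY500307, 6 rose and 5 fell with LY500307 in control cells and 7 and 2 in knockout cells. The partner lists and the stretches of the arm were run under alternatives added after seeing the data, and the partners were lower in 22 to 28 without 1 library. For the interaction, a fit to only the libraries compared needs all 8 and was not run.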
